A study of Mus musculus with 9 samples.

Results

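The genes described here are 44 mouse genes of the G2 phase and mitosis, chosen by name as members of the machinery that brings a cell into mitosis and through it. All 44 symbols were present among the 24421 genes of the count tables, and all 44 passed the filter on low counts, which kept 11577 genes for testing. The lowest read count of any of them in any library was 7. They were grouped by role into chromosome scaffold and condensin (7 genes), cyclins with Cdk1 and the Cdc25 phosphatases (6), mitotic kinases with the chromosomal passenger complex (5), the spindle assembly checkpoint (5), centromere and kinetochore (6), partners of the anaphase-promoting complex (2), kinesin motors (6), spindle assembly factors (3) and cytokinesis (4).

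RNA was sequenced from freshly isolated gut cells of C57BL/6 mice, aged 6 days after birth, that were wild type (WT) or knockout for IκBα (KO), the inhibitor of NF-κB encoded by Nfkbia. Cells were sorted by staining for EphB2, a receptor that is high at the crypt base and falls as cells climb towards the villus. The 4 groups were WT EphB2-positive (n = 2), KO EphB2-positive (n = 3), WT EphB2-negative (n = 2) and KO EphB2-negative (n = 2), 9 libraries in all, and all shared strain, age and tissue. The make of the knockout allele, and with it the cells that lost the gene, is not given in the sources used here.

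Mitotic genes are switched on late in the cell cycle. In resting cells the DREAM complex represses many of them through a short promoter element, the cell cycle genes homology region (CHR), and in dividing cells B-MYB and FOXM1 activate them through the same complex of MuvB proteins, often beside CCAAT boxes bound by NF-Y. In the gut, dividing cells lie in the crypt, as stem cells at its base and as transit-amplifying cells above them, while the enterocytes of the villus have left the cell cycle. Their mRNA in a bulk library therefore reads out a population, and fewer dividing cells cannot be told apart from less of each mRNA per cell.

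Values are reads scaled to library size and composition (CPM), and they can be compared between libraries but not between genes. The libraries held 1503972 to 2074076 reads in genes. Nfkbia had 47 to 163 reads in the 4 WT libraries and 0 in the 5 KO libraries. Markers of epithelium were present in every library, with 8 of 8 genes detected. Markers of red cells were at or near 0 in all libraries, and those of endothelium were near 0 in EphB2-positive cells. WT EphB2-negative replicates 1 and 2 stood apart from each other: their counts gave a chi-square of 24.2 for each degree of freedom, whereas the 5 pairs within the other groups gave 1.93 to 4.32. The summed crypt base markers of replicate 1 reached 2180 CPM against 535 CPM in replicate 2, the absorptive enterocyte markers 11544 against 28543 CPM, and the leukocyte markers 127 against 1086 CPM. Results that rest on the WT EphB2-negative pair are given below with and without each library.

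Promoters are shown first, as a description of the genes, and their part in the values was not tested. All positions are on GRCm38. RefSeq promoter windows on GRCm38.p6, running from 250 bases before to 50 bases after a transcription start, matched 37 of the 44 genes by symbol. Smc4, Ccna2, Cdc25c, Aurkb, Incenp, Kif20a and Tpx2 had no window in that table. The 10 stretches below run from 80 bases before the start to 20 bases after it, 5′ to 3′ on the strand of the gene, and capitals mark each match to CHR letters (TTTGAA or TTCGAA) or to CCAAT, on either strand. The first 8 hold CHR letters near the start, from Cdk1, the kinase of mitotic entry, to Ncapg, a condensin subunit. The last 2, Ccnb1 and Birc5, hold none of these CHR letters in the whole window from 250 bases before to 50 after the start; the letters TTCAAA and ATTGG are CHR and CCAAT on the other strand.
Cdk1, chr10:69352893-69352992, minus strand: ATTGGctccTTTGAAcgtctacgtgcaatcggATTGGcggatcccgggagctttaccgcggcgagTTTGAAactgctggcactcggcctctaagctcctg
Ccnb2, chr9:70421535-70421634, minus strand: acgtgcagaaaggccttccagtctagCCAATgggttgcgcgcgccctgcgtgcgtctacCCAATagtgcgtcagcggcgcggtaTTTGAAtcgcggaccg
Cdc20, chr4:118437324-118437423, minus strand: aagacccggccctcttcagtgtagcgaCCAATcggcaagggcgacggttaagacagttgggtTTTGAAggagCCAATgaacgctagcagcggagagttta
Ube2c, chr2:164769849-164769948, plus strand: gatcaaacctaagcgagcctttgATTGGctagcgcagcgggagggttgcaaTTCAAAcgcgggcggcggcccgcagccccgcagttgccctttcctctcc
Bub1, chr2:127831840-127831939, minus strand: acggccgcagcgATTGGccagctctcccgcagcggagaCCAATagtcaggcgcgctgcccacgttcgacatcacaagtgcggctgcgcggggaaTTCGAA
Kif11, chr19:37376302-37376401, plus strand: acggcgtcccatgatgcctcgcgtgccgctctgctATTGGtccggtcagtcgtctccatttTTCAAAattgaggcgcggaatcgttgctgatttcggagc
Top2a, chr11:99024170-99024269, minus strand: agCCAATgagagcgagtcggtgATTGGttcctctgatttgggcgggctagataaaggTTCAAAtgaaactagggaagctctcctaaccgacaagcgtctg
Ncapg, chr5:45669845-45669944, plus strand: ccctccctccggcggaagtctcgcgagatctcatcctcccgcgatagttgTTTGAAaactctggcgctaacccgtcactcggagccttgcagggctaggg
Ccnb1, chr13:100786467-100786566, minus strand: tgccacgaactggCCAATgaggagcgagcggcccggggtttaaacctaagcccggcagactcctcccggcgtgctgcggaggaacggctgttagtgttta
Birc5, chr11:117849157-117849256, plus strand: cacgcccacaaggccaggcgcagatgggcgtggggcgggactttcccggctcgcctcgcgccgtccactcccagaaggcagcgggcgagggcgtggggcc

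Of the matched genes, 3 had 2 windows, so 40 windows were searched. CHR letters were present in 33 of these 40 windows (82.5%), against 19.2% of all 32851 windows in the table. CCAAT was present in 31 of 40 (77.5%), against 37.4% of all windows, and both elements in 29 of 40 (72.5%), against 7.52%. CHR letters began within 50 bases of the start in 29 of 40 windows (72.5%), against 5.31% of all windows. TATAAA, the core of the TATA box, was found in 1 of 40 windows (2.5%), against 13.6% of all windows. A match is a description of the letters and not of a bound site, and CHR and CCAAT matches were counted wherever they lay. The 30 genes with CHR letters and the 7 without them had median log2 fold changes of 2.30 and 2.36 for EphB2-positive over EphB2-negative cells in KO, and of -1.18 and -1.53 for KO over WT in EphB2-negative cells.

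**Figure D1:**
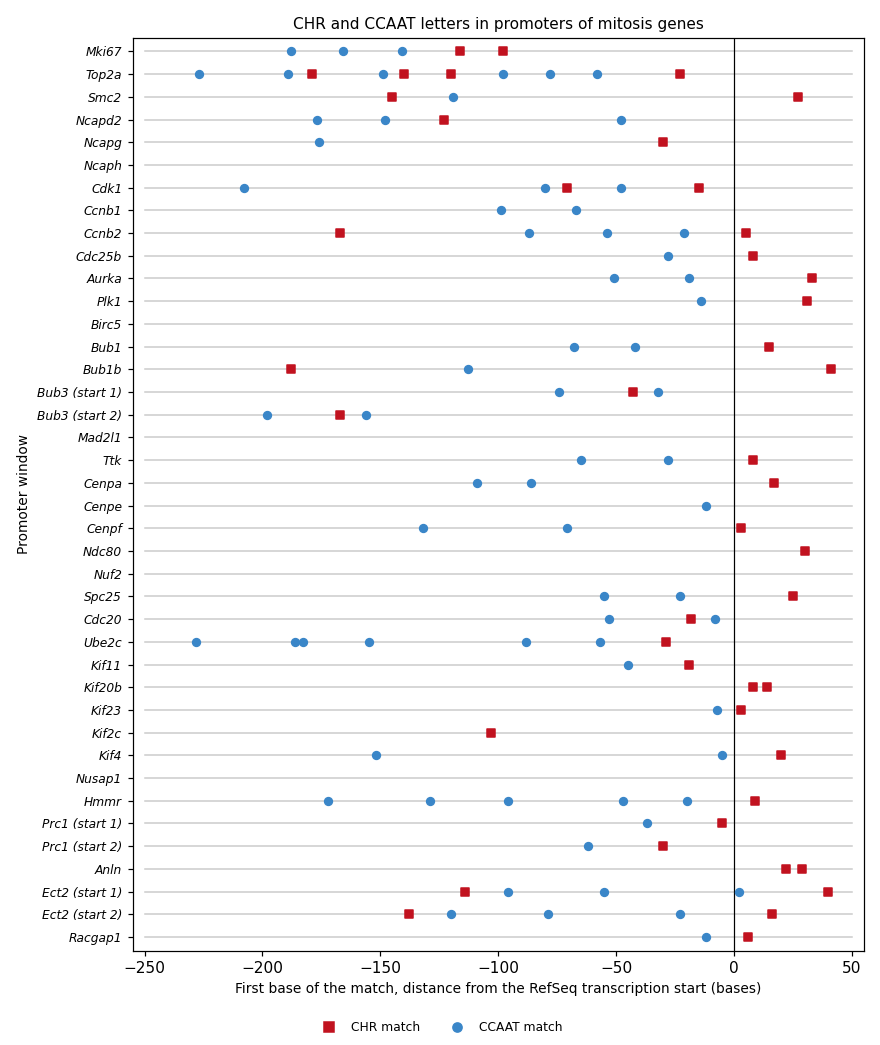
Positions of CHR matches (red squares) and CCAAT matches (blue circles) in the 40 RefSeq promoter windows of 37 mitosis genes, with the distance from the transcription start in bases on the x axis and 1 window per line. CHR letters begin within 50 bases of the start in 29 of 40 windows.

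Levels of different genes were compared per length of merged exons (RPKM, which is CPM for each kilobase of exon). In WT EphB2-positive cells Ccnb2, a B-type cyclin, and Cdc20, which activates the anaphase-promoting complex, were highest, at 87.6 ± 0.948 and 86.4 ± 4.96 RPKM (SD, n = 2), and did not differ beyond their spread. Top2a, the topoisomerase that untangles sister chromatids, followed at 65.04 ± 7.45 RPKM, then Mki67, whose protein coats mitotic chromosomes, at 62.8 ± 7.01 RPKM and Ube2c, the ubiquitin-conjugating enzyme of the anaphase-promoting complex, at 59.6 ± 7.05 RPKM. These 3 were within their spread of each other. At the low end stood Anln at 7.44 ± 0.515 RPKM, Cenpf at 6.11 ± 1.22 RPKM and Cdc25c at 5.45 ± 0.479 RPKM. Merged exons span 1531 bases in Ccnb2 and 1868 in Cdc20 but 15433 in Cenpf, so this order depends on the gene models. The annotation behind the counts is not given. In KO EphB2-positive cells Cdc20 was highest at 96.3 ± 4.62 RPKM and Top2a second at 85.8 ± 2.37 RPKM (n = 3), while Ccnb2 stood at 70.01 ± 7.59 RPKM. In KO EphB2-negative cells Ccnb2 and Cdc20 led again, at 26.3 ± 3.63 and 21.9 ± 2.49 RPKM, and Cenpf was lowest at 0.724 ± 0.0902 RPKM (n = 2).

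Summed over the 44 genes, the level in EphB2-positive cells was 6183 and 5443 CPM for WT and 6315, 6537 and 6542 CPM for KO. In EphB2-negative cells it was 4339 and 1921 CPM for WT replicates 1 and 2, and 1424 and 1221 CPM for KO. Both EphB2-positive groups were above all EphB2-negative libraries, and the first WT EphB2-negative library was closest to them. The members moved together across the 9 libraries. The Pearson r of a member's log2 CPM with the mean of the other members ran from 0.915 for Ndc80, a subunit of the microtubule-binding complex of the kinetochore, to 0.997 for Tpx2, which activates Aurora A on the spindle. This r describes libraries that share groups, and the sorts differ in level for every member. Outside the list, the 5 tested genes most like the members' mean over the 9 libraries were Nono (r = 0.998), a nuclear RNA-binding protein, the lamin gene Lmnb1 (r = 0.997), the histone chaperone Nap1l1 (r = 0.997), the spindle gene Spag5 (r = 0.996) and Tmpo (r = 0.996), which encodes lamina-associated polypeptides.

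**Figure D2:**
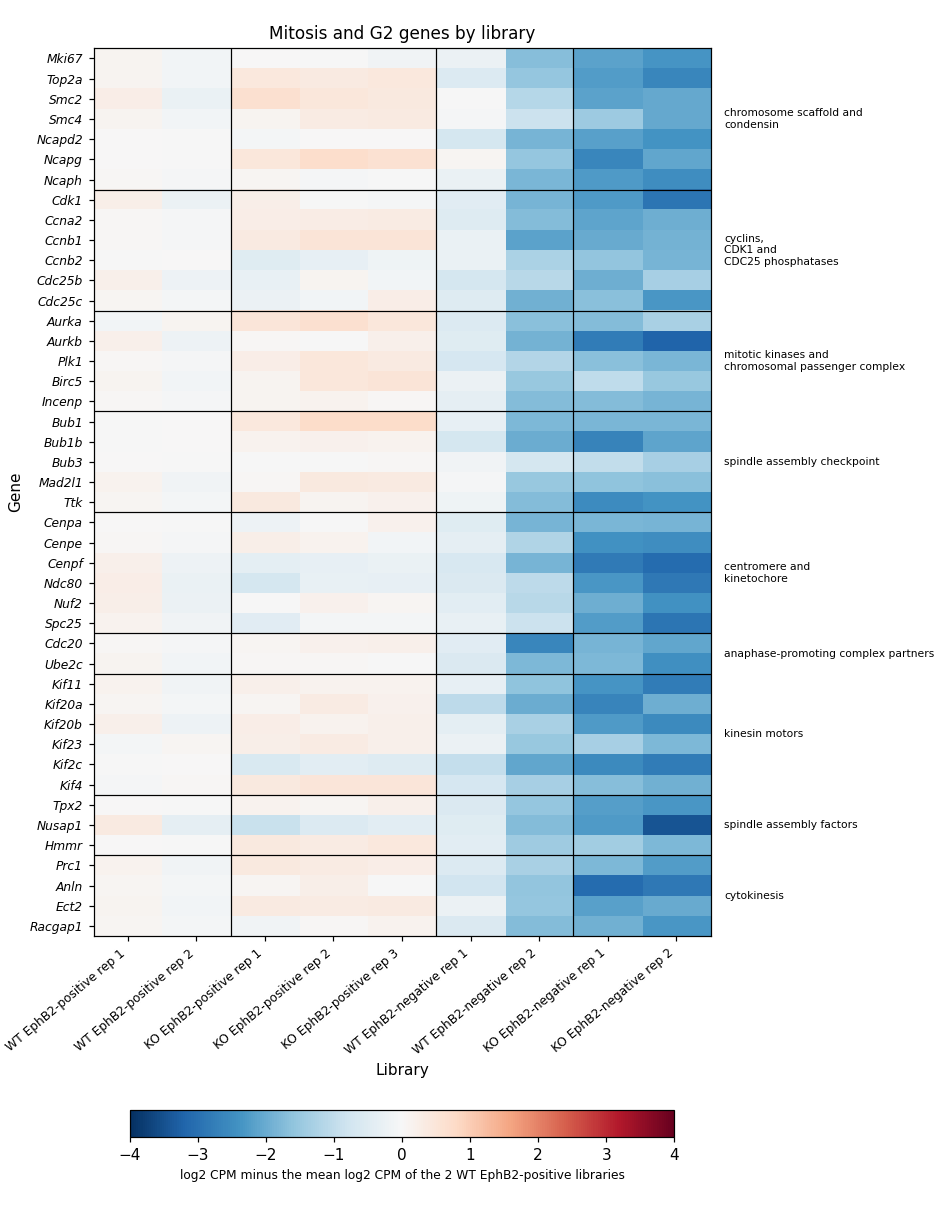
Heat map of the 44 genes (lines, by role) in the 9 libraries (columns); colour gives log2 CPM minus the mean of the WT EphB2-positive libraries. The EphB2-positive columns are near 0, WT EphB2-negative replicate 1 is only slightly lower, and the 2 KO EphB2-negative columns are the darkest blue for most genes.

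Of the chromosome scaffold and condensin genes, Mki67 (chr7:135689784-135716361, minus strand) stood at 681 and 582 CPM in the WT EphB2-positive libraries, 629.9, 619 and 576 CPM in the KO EphB2-positive libraries, 536 and 192 CPM in the WT EphB2-negative libraries and 143 and 123 CPM in the KO EphB2-negative libraries. KO EphB2-negative libraries were lowest, the EphB2-positive groups overlapped, and WT EphB2-negative replicate 1 lay just under the lowest EphB2-positive library. Top2a (chr11:98992943-99024189, minus strand) stood at 634 and 539 CPM in the WT EphB2-positive libraries, 783, 749 and 788 CPM in the KO EphB2-positive libraries, 399 and 199.9 CPM in the WT EphB2-negative libraries and 122 and 94.2 CPM in the KO EphB2-negative libraries. Its 4 groups did not overlap, with KO EphB2-positive highest and KO EphB2-negative lowest. Smc4, an ATPase at the core of condensin, stood at 227 and 198 CPM in the WT EphB2-positive libraries, 228, 265 and 274 CPM in the KO EphB2-positive libraries, 205 and 116 CPM in the WT EphB2-negative libraries and 76.1 and 50.9 CPM in the KO EphB2-negative libraries. WT EphB2-negative replicate 1 fell inside the range of WT EphB2-positive cells here, while replicate 2 did not. Ncapg, a subunit of condensin I, stood at 60.9 and 58.7 CPM in the WT EphB2-positive libraries, 82.1, 97.1 and 92.03 CPM in the KO EphB2-positive libraries, 63.003 and 19.8 CPM in the WT EphB2-negative libraries and 8.96 and 13.4 CPM in the KO EphB2-negative libraries. In this gene WT EphB2-negative replicate 1 exceeded both WT EphB2-positive libraries, and all KO EphB2-positive libraries were above it.

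Among regulators of mitotic entry, Cdk1 (chr10:69335146-69352938, minus strand), the kinase that drives it, stood at 182 and 133 CPM in the WT EphB2-positive libraries, 183, 154 and 151 CPM in the KO EphB2-positive libraries, 114 and 42.1 CPM in the WT EphB2-negative libraries and 31.4 and 19.7 CPM in the KO EphB2-negative libraries. The EphB2-positive groups overlapped and KO EphB2-negative libraries were lowest. Its partner Ccnb1, cyclin B1 (chr13:100778650-100786570, minus strand), stood at 146 and 138 CPM in the WT EphB2-positive libraries, 182, 205 and 204 CPM in the KO EphB2-positive libraries, 117 and 31.5 CPM in the WT EphB2-negative libraries and 34.6 and 37.6 CPM in the KO EphB2-negative libraries. All KO EphB2-positive libraries were above the WT ones, and in EphB2-negative cells the WT pair lay on both sides of the KO pair. Cdc25b, a phosphatase that frees Cdk1 from inhibition, stood at 58.5 and 42.9 CPM in the WT EphB2-positive libraries, 40.7, 53.8 and 46.3 CPM in the KO EphB2-positive libraries, 30.1 and 22.7 CPM in the WT EphB2-negative libraries and 12.2 and 19.1 CPM in the KO EphB2-negative libraries. Its EphB2-positive groups overlapped and its EphB2-negative groups did not.

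The mitotic kinase Aurka, Aurora A of the centrosome (chr2:172356190-172370535, minus strand), stood at 65.8 and 75.5 CPM in the WT EphB2-positive libraries, 98.8, 110.5 and 96.1 CPM in the KO EphB2-positive libraries, 47.9 and 21.3 CPM in the WT EphB2-negative libraries and 20.5 and 28.02 CPM in the KO EphB2-negative libraries. KO was above WT in all EphB2-positive libraries, and the EphB2-negative groups overlapped. Plk1, polo-like kinase 1 (chr7:122159439-122169873, plus strand), stood at 126 and 118 CPM in the WT EphB2-positive libraries, 147, 166 and 156 CPM in the KO EphB2-positive libraries, 76.7 and 53.2 CPM in the WT EphB2-negative libraries and 37.8 and 33.7 CPM in the KO EphB2-negative libraries. Its 4 groups were fully separate. Birc5, survivin of the chromosomal passenger complex (chr11:117849251-117855743, plus strand), stood at 136 and 116 CPM in the WT EphB2-positive libraries, 135, 171 and 182 CPM in the KO EphB2-positive libraries, 107 and 43.1 CPM in the WT EphB2-negative libraries and 62.1 and 43.3 CPM in the KO EphB2-negative libraries. KO and WT overlapped in both sorts, with WT EphB2-negative replicate 2 the lowest library by a small margin.

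In the spindle assembly checkpoint, which holds back anaphase until all chromosomes are attached, the kinase Bub1 stood at 55.02 and 55.3 CPM in the WT EphB2-positive libraries, 74.1, 93.3 and 93.1 CPM in the KO EphB2-positive libraries, 43.4 and 15.002 CPM in the WT EphB2-negative libraries and 14.7 and 14.6 CPM in the KO EphB2-negative libraries. KO EphB2-positive libraries were highest, and WT EphB2-negative replicate 2 was level with KO EphB2-negative cells. Bub1b, which encodes the checkpoint inhibitor BubR1 (chr2:118598211-118641591, plus strand), stood at 154 and 154 CPM in the WT EphB2-positive libraries, 172, 174 and 169 CPM in the KO EphB2-positive libraries, 94.96 and 37.7 CPM in the WT EphB2-negative libraries and 23.03 and 35.02 CPM in the KO EphB2-negative libraries. Its groups did not overlap, and the EphB2-positive ones were close together. Bub3, which docks these proteins at the kinetochore, stood at 126 and 122 CPM in the WT EphB2-positive libraries, 123, 124 and 128 CPM in the KO EphB2-positive libraries, 111 and 75.01 CPM in the WT EphB2-negative libraries and 62.1 and 49.03 CPM in the KO EphB2-negative libraries. Bub3 had the smallest step between sorts in KO of all 44 genes.

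At the centromere, Cenpa, the histone H3 variant that marks it (chr5:30666777-30674830, plus strand), stood at 78.1 and 75.98 CPM in the WT EphB2-positive libraries, 67.4, 75.7 and 86.4 CPM in the KO EphB2-positive libraries, 55.2 and 20.3 CPM in the WT EphB2-negative libraries and 21.1 and 20.4 CPM in the KO EphB2-negative libraries. WT EphB2-negative replicate 2 was level with the KO EphB2-negative libraries. Cenpe, a kinesin of the kinetochore, stood at 93.3 and 88.3 CPM in the WT EphB2-positive libraries, 107, 100.5 and 84.8 CPM in the KO EphB2-positive libraries, 70.8 and 38.7 CPM in the WT EphB2-negative libraries and 15.996 and 15.3 CPM in the KO EphB2-negative libraries. Both WT EphB2-negative libraries were above both KO EphB2-negative ones. Spc25, a subunit of the NDC80 complex, stood at 51.1 and 41.4 CPM in the WT EphB2-positive libraries, 33.4, 43.3 and 43.7 CPM in the KO EphB2-positive libraries, 36.98 and 24.7 CPM in the WT EphB2-negative libraries and 8.96 and 5.09 CPM in the KO EphB2-negative libraries. The KO EphB2-negative libraries were again lowest, and WT EphB2-negative replicate 1 lay above the lowest KO EphB2-positive library. For the anaphase-promoting complex, Cdc20 (chr4:118432901-118437352, minus strand) stood at 168 and 155 CPM in the WT EphB2-positive libraries, 170.2, 183 and 187 CPM in the KO EphB2-positive libraries, 119 and 25.6 CPM in the WT EphB2-negative libraries and 44.1 and 37.6 CPM in the KO EphB2-negative libraries. Here WT EphB2-negative replicate 2 was the lowest library, below both KO ones.

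Of the kinesins, Kif11, which pushes the spindle poles apart (chr19:37376403-37421859, plus strand), stood at 193 and 157 CPM in the WT EphB2-positive libraries, 201, 192 and 191 CPM in the KO EphB2-positive libraries, 137 and 56.6 CPM in the WT EphB2-negative libraries and 33.3 and 24.2 CPM in the KO EphB2-negative libraries. Its EphB2-positive groups overlapped and its EphB2-negative groups did not. Kif20a, a motor of the central spindle, stood at 94.3 and 86.3 CPM in the WT EphB2-positive libraries, 95.4, 113 and 101 CPM in the KO EphB2-positive libraries, 43.4 and 21.8 CPM in the WT EphB2-negative libraries and 13.4 and 22.3 CPM in the KO EphB2-negative libraries. Both WT EphB2-negative libraries were below every EphB2-positive library, and the EphB2-negative groups overlapped. Kif2c, which depolymerises microtubules at the centromere, stood at 70.7 and 73.5 CPM in the WT EphB2-positive libraries, 46.7, 53.3 and 50.4 CPM in the KO EphB2-positive libraries, 36.98 and 16.5 CPM in the WT EphB2-negative libraries and 11.5 and 9.55 CPM in the KO EphB2-negative libraries, with KO below WT in every EphB2-positive library. Kif4, a motor on chromosome arms, stood at 75.2 and 79.9 CPM in the WT EphB2-positive libraries, 102, 109 and 109 CPM in the KO EphB2-positive libraries, 47.9 and 30.004 CPM in the WT EphB2-negative libraries and 23.03 and 19.7 CPM in the KO EphB2-negative libraries. Its 4 groups were separate, with KO EphB2-positive highest. The spindle-binding gene Nusap1 stood at 155 and 94.2 CPM in the WT EphB2-positive libraries, 65.4, 82.4 and 89.5 CPM in the KO EphB2-positive libraries, 86.7 and 35.3 CPM in the WT EphB2-negative libraries and 24.3 and 10.2 CPM in the KO EphB2-negative libraries. The WT EphB2-positive pair was far apart, and both of its libraries were above all KO EphB2-positive ones. In cytokinesis, Prc1, which bundles microtubules of the central spindle (chr7:80294450-80316259, plus strand), stood at 124 and 101 CPM in the WT EphB2-positive libraries, 147, 140.0 and 136 CPM in the KO EphB2-positive libraries, 77.2 and 44.5 CPM in the WT EphB2-negative libraries and 31.4 and 22.9 CPM in the KO EphB2-negative libraries. Anln, the scaffold anillin of the contractile ring, stood at 70.7 and 64.1 CPM in the WT EphB2-positive libraries, 70.7, 79.5 and 67.4 CPM in the KO EphB2-positive libraries, 39.3 and 21.8 CPM in the WT EphB2-negative libraries and 7.04 and 8.28 CPM in the KO EphB2-negative libraries. Prc1 was higher in KO in each EphB2-positive library, Anln was not, and both were lowest in KO EphB2-negative cells without overlap.

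**Figure D3:**
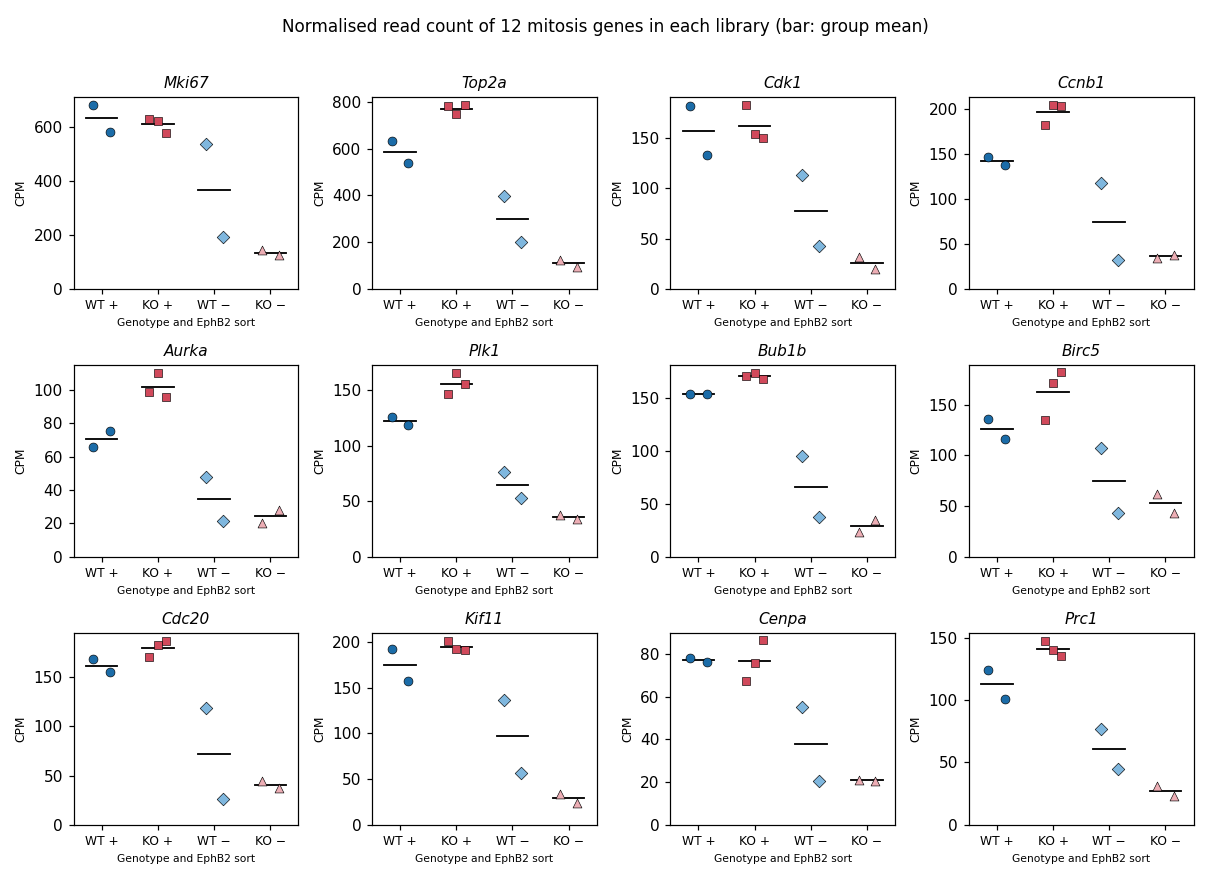
CPM of the 12 genes set by name in each of the 9 libraries (points), with genotype and EphB2 sort on the x axis and the group mean as a bar; the y axes start at 0. The WT EphB2-negative points are far apart in every panel, and no KO EphB2-negative point reaches an EphB2-positive one.

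In KO, EphB2-positive cells expressed every one of the 44 genes at a higher level than EphB2-negative cells. All 44 rose in edgeR's quasi-likelihood test at an adjusted p under 0.05, where 26.4% of all tested genes rose, and in all 44 the 3 EphB2-positive libraries lay above both EphB2-negative ones, as in 37.7% of all tested genes. The median log2 fold change was 2.33, or 5.02-fold, against -0.02 over all tested genes. Anln rose most (9.41-fold, log2 fold change 3.23 ± 0.30, adjusted p = 5.4e-05), and the Aurora B kinase Aurkb and Ncapg followed with log2 fold changes of 3.18 ± 0.43 and 3.01 ± 0.47. Plk1 (log2 fold change 2.13 ± 0.19, adjusted p = 4.5e-05) and Kif4 (log2 fold change 2.31 ± 0.22, adjusted p = 6.3e-05) had, with Anln, the lowest p-values. Smaller rises were those of Bub3 (1.17 ± 0.19), Ccnb2 (1.41 ± 0.28) and Cdc25b (1.59 ± 0.27) on the log2 scale.

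By role, the log2 rise in KO ran from 2.01 to 3.01 in scaffold and condensin genes, 1.41 to 2.67 in the cyclin group, 1.63 to 3.18 in kinases and the passenger complex and 1.17 to 2.86 in checkpoint genes. It ran from 1.88 to 2.72 in centromere and kinetochore genes, 1.83 to 2.76 in kinesins, 2.02 to 2.45 in spindle factors and 2.16 to 3.23 in cytokinesis genes, and was 2.14 for Cdc20 and 2.15 for Ube2c. Summed leukocyte markers stood at 92.1 to 112 CPM in KO EphB2-positive and 1278 to 1548 CPM in KO EphB2-negative libraries, absorptive enterocyte markers at 710.0 to 865 against 25389 to 37680 CPM, and crypt base markers at 2105 to 3164 against 165 to 241 CPM. With the leukocyte score (mean log2 CPM of the 11 leukocyte markers) as a covariate, 3 of 44 members rose (3.31% of all genes) and the median was 0.49; that score itself separates the sorts. Of the mesenchyme markers Vim stood at 4.004 to 6.17 CPM in KO EphB2-positive and at 158 and 229 CPM in KO EphB2-negative libraries. The sum of the other 6 overlapped between the sorts, at 7.34 to 82.3 and at 66.5 and 139 CPM. Of these, Col1a1, Col1a2, Col3a1 and Pdgfra overlapped. Dcn (0 to 5.14 against 7.68 and 12.7 CPM) and Lum (0 to 1.54 against 3.20 and 2.55 CPM) did not. Of the endothelium markers Pecam1 stood at 0 to 0.667 against 63.7 and 79.98 CPM, and the other 4, Cdh5, Kdr, Tie1 and Emcn, summed to 0 against 3.185 and 3.20 CPM. The part of these other markers in the result was not tested.

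In WT, all 44 genes also lay higher in EphB2-positive cells on average, but 5 passed the test, where 0.656% of all tested genes rose. These were Kif20a (log2 fold change 1.47 ± 0.30, adjusted p = 0.033), Plk1 (log2 fold change 0.91 ± 0.19, adjusted p = 0.033), Kif2c (log2 fold change 1.43 ± 0.30, adjusted p = 0.036), Kif4 (log2 fold change 0.99 ± 0.21, adjusted p = 0.038) and Anln (log2 fold change 1.14 ± 0.25, adjusted p = 0.039). The median over the 44 was 0.91, or 1.88-fold, against -0.02 over all genes, and the lowest was Smc4 at 0.41 ± 0.27. Ephb2, the sorting marker, was itself at 142 and 160.3 CPM in WT EphB2-positive and 124.6 and 66.8 CPM in WT EphB2-negative libraries (log2 fold change 0.66 ± 0.24, adjusted p = 0.12). In 40 of 44 genes the WT libraries of the sorts did not overlap, as in 26.5% of all tested genes. Mki67, at 1.73-fold, had log2 fold change 0.79 ± 0.38, adjusted p = 0.20, and Top2a, at 1.96-fold, had log2 fold change 0.97 ± 0.28, adjusted p = 0.071.

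The WT result depended on the EphB2-negative pair and on the other libraries. Without WT EphB2-negative replicate 1, all 44 genes rose (18% of all genes did), with a median of 1.63, and the log2 fold change was 1.72 for Mki67 and 2.65 for Cdc20. Without replicate 2, 5 rose (0.786% of all genes did), with a median of 0.44, and Mki67 and Cdc20 had values of 0.22 and 0.43. Leaving out WT EphB2-positive replicate 1 or 2 took the count to 0, where 0% of all genes rose. Leaving out KO EphB2-positive replicate 1, 2 or 3 or KO EphB2-negative replicate 2 also took it to 0, where 0.0433%, 0.0434%, 0.0433% and 0.0662% of all genes rose, and leaving out KO EphB2-negative replicate 1 took it to 1 (0.0904% of all genes). Calls over all genes thus fell with those of the members. With a block for a code that the file names share between sorts, 20 rose (2.08% of all genes did). Both the fit on the 4 WT libraries alone (0% of all genes rose) and the fit with the leukocyte score described above (0.155% rose) called 0 of 44, and with that score the median was -0.06.

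**Figure D4:**
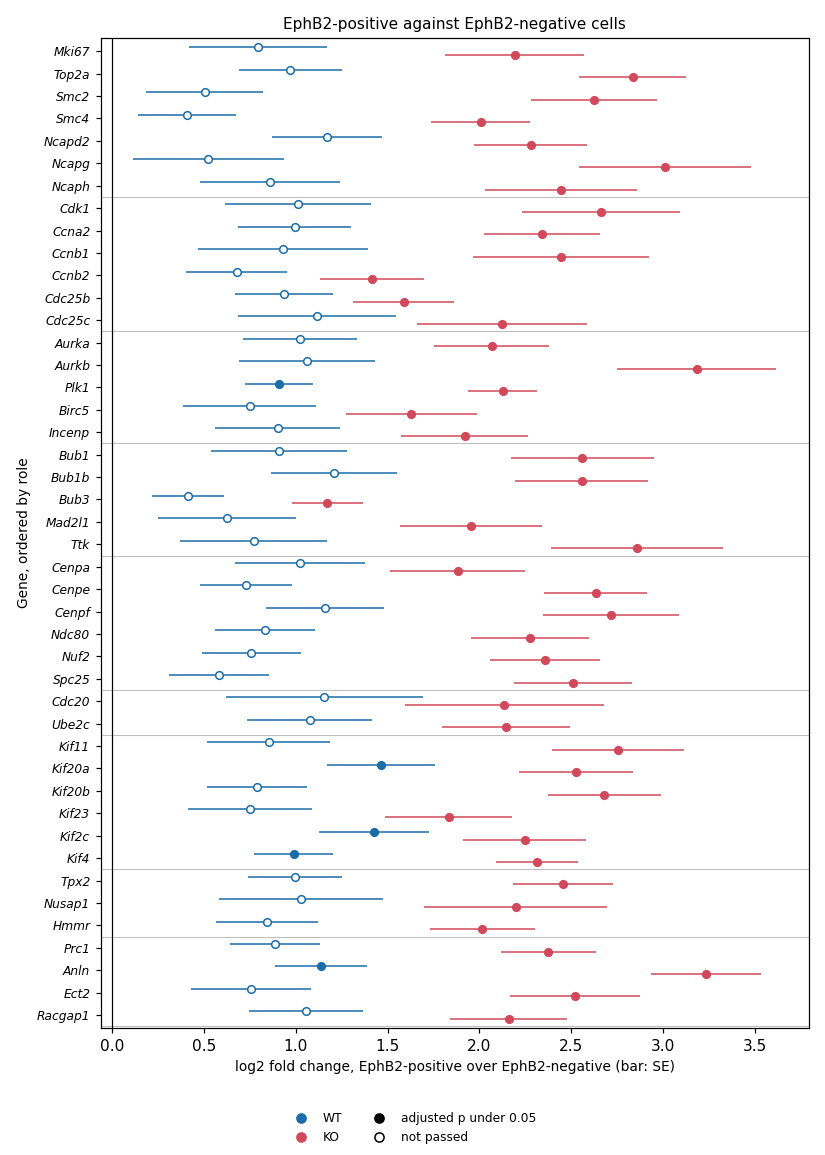
Log2 fold change of EphB2-positive over EphB2-negative cells (x axis; bars are SE) for each of the 44 genes in WT (blue) and KO (red); filled points passed at an adjusted p under 0.05. Every point is above 0, the 44 KO points are filled and 5 WT points are filled.

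In EphB2-negative cells the knockout had less mRNA of mitotic genes than WT. Of the 44, 30 fell, 0 rose and 14 did not pass, where 16.2% of all tested genes fell and 13.7% rose. At an unadjusted p under 0.05, 37 were lower and 0 higher, where 2763 of all 11577 tested genes were lower and 2160 higher. The median log2 fold change was -1.18, or 2.27-fold lower, against -0.09 over all genes, and every estimate was below 0. Spc25 fell by 2.13 on the log2 scale (4.37-fold lower, adjusted p = 0.0026), Anln by 1.99 (adjusted p = 0.0029) and Cenpe by 1.81 (adjusted p = 0.0029). KO and WT libraries did not overlap in 34 of 44 genes with KO lower, as in 34.6% of all genes, and in 0 with KO higher, as in 28.7%.

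By role, 7 of 7 scaffold and condensin genes fell, with log2 fold changes of -1.89 to -1.13, as did 4 of 4 cytokinesis genes (-1.99 to -1.09) and 5 of 6 centromere and kinetochore genes, all but Cenpa. Among kinesins 4 of 6 fell, among checkpoint genes 3 of 5, in the cyclin group 3 of 6, among spindle factors 2 of 3, among kinases and the passenger complex 2 of 5 (Aurkb and Plk1), and of the anaphase-promoting complex partners 0 of 2. Top2a fell by 1.47 (adjusted p = 0.0065), Kif11 by 1.75 (adjusted p = 0.0098) and Mki67 by 1.45 (adjusted p = 0.024). The smallest estimates were those of Birc5 (log2 fold change -0.51 ± 0.38, adjusted p = 0.34) and Aurka (log2 fold change -0.52 ± 0.34, adjusted p = 0.28), which did not pass. Cdc20 (log2 fold change -0.82 ± 0.58, adjusted p = 0.31) and Ccnb1 (log2 fold change -1.05 ± 0.51, adjusted p = 0.15) did not pass either.

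This comparison too depended on which WT EphB2-negative library stood for the group. Without replicate 1, 17 members passed, 16 of them lower in KO (14.6% of all genes fell and 14.4% rose) and 1, Cdc20, higher (0.67, adjusted p = 0.035), and the median was -0.56. Anln, Cenpe and Spc25 fell in that fit too, by 1.499, 1.30 and 1.80, as did Top2a by 0.88, while Aurka, Birc5, Ccnb1 and Cenpa had estimates above 0 that did not pass. Without replicate 2, 44 of 44 fell (24.5% of all genes did), with a median of -1.70. Leaving out KO EphB2-negative replicate 1 gave 13, all lower (6.57% of all genes fell), and replicate 2 gave 4, all lower (4.04% of all genes fell), and the 4 EphB2-negative libraries alone gave 0 of 44 (0.299% of all genes fell). Leukocyte markers summed to 127 and 1086 CPM in WT and 1278 to 1548 CPM in KO EphB2-negative libraries, absorptive enterocyte markers to 11544 and 28543 against 25389 to 37680 CPM, and crypt base markers to 2180 and 535 against 165 to 241 CPM. The enterocyte genes did not all follow their sum. Fabp2 (1653 and 3003 against 731 and 1449 CPM) and Lct (216 and 1095 against 58.9 and 197 CPM) were lower in KO. Apoa1, Rbp2, Mttp and Slc5a1 were higher in KO without overlap, and the others overlapped. Ephb2 itself stood at 124.6 and 66.8 CPM in WT and 30.7 and 34.4 CPM in KO. With the leukocyte score as a covariate 12 members fell (12.7% of all genes did), 1, Cdc20, rose (12.1% of all genes did), and the median was -0.45; the part of the other markers was not tested.

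In EphB2-positive cells, the sort that holds crypt cells, 0 of 44 genes passed between KO and WT, where 15.1% of all tested genes did (7.01% higher and 8.07% lower in KO). Of the 44, Kif4 alone had an unadjusted p under 0.05 (log2 fold change 0.46 ± 0.19, adjusted p = 0.14). At that cut 1594 of all 11577 tested genes were higher in KO and 1774 lower. DESeq2 also called 0 of the 44. The median log2 fold change was 0.15, against -0.01 over all genes, with 33 estimates above 0 and 11 below. The interval for Mki67 ran from -0.82 to 0.72 on the log2 scale around -0.05, that for Cdk1 from -0.77 to 0.85 around 0.04 and that for Top2a from -0.17 to 0.97 around 0.40. Bub1 was highest (log2 fold change 0.66 ± 0.32, adjusted p = 0.22) and Nusap1 lowest (log2 fold change -0.65 ± 0.40, adjusted p = 0.32). KO lay above WT without overlap in 20 of 44 genes, as in 26.9% of all genes, and below it in 5, Ccnb2, Cenpf, Ndc80, Kif2c and Nusap1, as in 28.6% of all genes. Summed crypt base markers were 4396 to 4772 CPM in WT and 2105 to 3164 CPM in KO EphB2-positive libraries, enterocyte markers 1505 to 3014 against 710.0 to 865 CPM, and leukocyte markers 63.1 to 65.8 against 92.1 to 112 CPM. That last sum was mostly Lcp1, at 61.2 and 62.9 CPM in WT and 88.1 to 95.6 CPM in KO. The other 10 leukocyte genes summed to 1.97 and 2.95 CPM in WT and 2.67 to 15.9 CPM in KO, where Rac2 made up 2.67 to 14.9 CPM. Of the enterocyte genes, Slc5a1 was higher in KO, at 110.5 and 124.3 CPM in WT and 132.8 to 161.9 CPM in KO. Apoa1, Rbp2 and Mttp overlapped, and the others were lower in KO. With the leukocyte score as a covariate 12 of 44 members passed, a share near that of all genes, of which 3341 of 11577 passed. The part of the other markers in the values was not tested.

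The spread in that test was shared with the WT EphB2-negative pair. Fitted on the EphB2-positive libraries alone, 15 of 44 passed (12 higher and 3 lower in KO, where 17.8% and 18.1% of all genes passed). Without WT EphB2-negative replicate 1 it was 11 (10 higher and 1 lower, where 14.2% and 14.1% passed), and without replicate 2 again 11 (10 and 1, where 14.6% and 14.5% passed). The same 11 passed in all 3 fits. Higher in KO were the mitotic entry genes Ccna2 and Ccnb1, the kinases Aurka, Plk1 and Bub1, the scaffold and condensin genes Top2a, Smc2 and Ncapg, the motor Kif4 and Hmmr, a spindle assembly factor, and lower was Kif2c. On the EphB2-positive libraries alone Bub1 had a log2 fold change of 0.66 ± 0.15 (adjusted p = 0.0013), Ncapg 0.60 ± 0.14 (adjusted p = 0.0018), Ccnb1 0.47 ± 0.11 (adjusted p = 0.0029) and Kif2c -0.52 ± 0.14 (adjusted p = 0.0072). Mki67 was at -0.06 ± 0.10 (adjusted p = 0.69) and Cdk1 at 0.04 ± 0.14 (adjusted p = 0.86). On the EphB2-positive libraries alone, the share of members called over both directions, 15 of 44, stood near the 35.9% of all genes. By direction, the share of members higher in KO was above that of all genes in each of the 3 fits. The share lower in KO was below it. This difference was not tested. The 3 fits share the EphB2-positive libraries and so nearly the same estimates, and their agreement is not separate evidence.

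**Figure D5:**
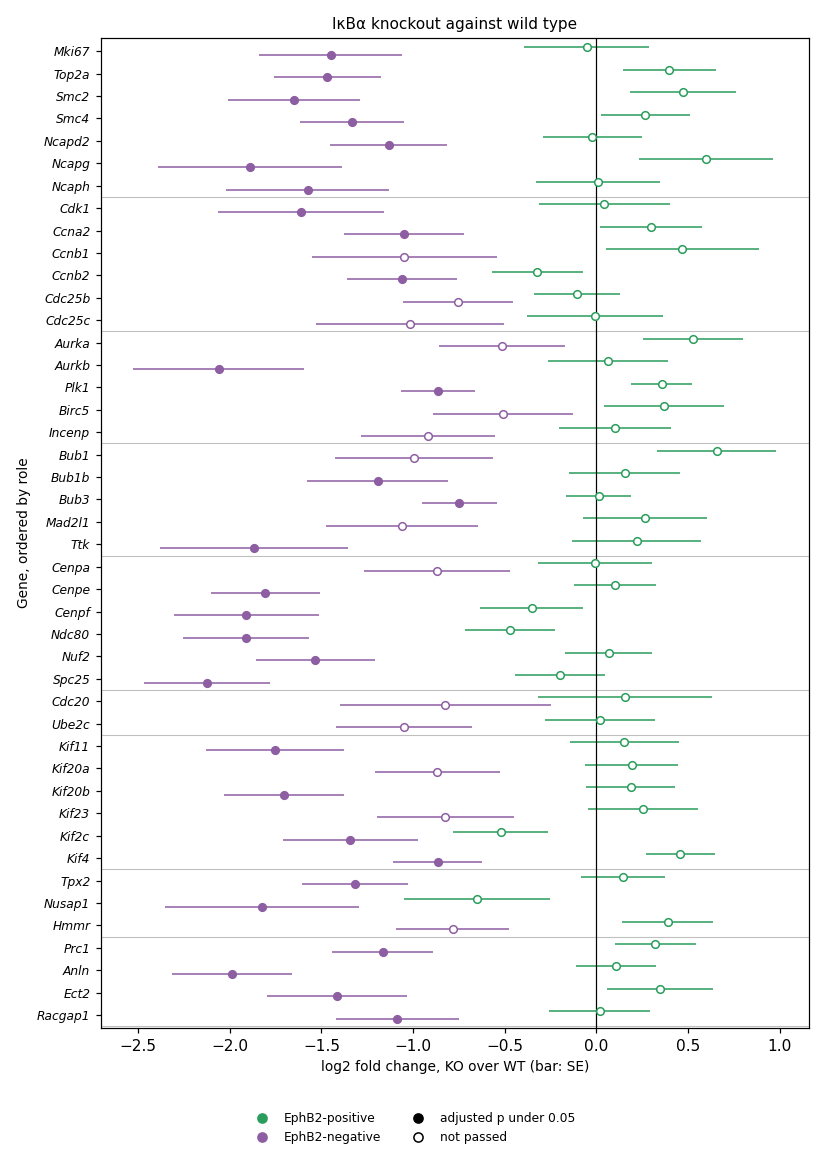
Log2 fold change of KO over WT (x axis; bars are SE) for each of the 44 genes in EphB2-positive (green) and EphB2-negative cells (purple); filled points passed at an adjusted p under 0.05. The green points are on both sides of 0 and none is filled, and the purple points are all below 0, with 30 filled.

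The genotype effect differed between the sorts for 16 of 44 genes, in all of which the value for EphB2-positive cells exceeded that for EphB2-negative cells, where 6.54% of all tested genes passed in this direction. The median difference was 1.37 on the log2 scale, against 0.06 over all genes, from 0.65 for Cdc25b to 2.49 ± 0.62 for Ncapg. Anln (difference 2.10 ± 0.40, adjusted p = 0.014), Cenpe (difference 1.91 ± 0.38, adjusted p = 0.016) and Top2a (difference 1.87 ± 0.39, adjusted p = 0.019) had the lowest p-values. Of the roles, 4 of 7 scaffold and condensin genes, 3 of 4 cytokinesis genes, 3 of 6 kinetochore genes and 3 of 6 kinesins passed, and 0 of 6 in the cyclin group, 0 of 5 in the checkpoint and 0 of 2 in the anaphase-promoting complex group. Of the kinases and passenger complex 2 of 5 passed, and of the spindle factors 1 of 3. Without WT EphB2-negative replicate 1, 16 passed as well (9.71% of all genes did) with a median of 0.60, and without replicate 2, 42 (17.8% of all genes did) with a median of 1.86. Leaving out WT EphB2-positive replicate 1 or 2 or KO EphB2-negative replicate 2 took the count to 0, where 0.657%, 0.0492% and 0.108% of all genes passed in this direction. Leaving out KO EphB2-negative replicate 1 took it to 3 (1.78% of all genes), and KO EphB2-positive replicates 1, 2 and 3 to 4, 2 and 3 (2.3%, 1.66% and 2.54% of all genes). Calls over all genes thus fell with those of the members. The comparisons share libraries, so their values are set side by side and not counted as separate evidence.

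Other genes of the cell cycle were followed in lists set by function, with earlier results of these data known. In KO, EphB2-positive against EphB2-negative cells, 16 of 20 further regulators of G2 and mitosis rose, where 26.4% of all tested genes did, among them the kinase Pbk (3.52 ± 0.42) and the transcription factor Foxm1 (2.21 ± 0.31), which activates many mitotic genes. Of other kinetochore and centromere genes 28 of 34 rose, of other spindle and cytokinesis genes 19 of 20, among them the abscission gene Cep55 (3.64 ± 0.28), and of other condensin and cohesin genes 13 of 16 rose and 1 fell. Among 38 DNA replication genes 35 rose, among them Pole, the catalytic subunit of polymerase epsilon (3.18 ± 0.33), and Mcm2 of the replicative helicase (2.43 ± 0.29). Of 19 subunits of the anaphase-promoting complex and chromosome separation genes 12 rose and 1 fell, with a median log2 fold change of 0.70. Of 19 tested G1 cyclins, their kinases and inhibitors, 7 rose and 4 fell. Ccnd2, cyclin D2, rose (2.59 ± 0.19), and the inhibitors Cdkn1a and Cdkn2b fell by 1.85 and 3.15. Over all 11577 tested genes 3053 rose and 3375 fell, so the share that fell in each of these lists was below that of all genes.

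In WT, 0 of these regulators, kinetochore, condensin and anaphase-promoting complex genes passed between the sorts, 3 of 20 spindle genes rose (Ckap5, Kif18b and Tacc3, which act on spindle microtubules), 1 of 38 replication genes rose (Pole), and Cdkn1c and Cdkn2b fell. Of all 11577 tested genes 76 rose and 437 fell. These calls come from the WT fit described above, in which calls over all genes changed with the libraries used. The list medians in WT were 0.75 for G2 and mitosis regulators, 0.83 for kinetochore, 0.94 for spindle and 0.91 for replication genes. Between KO and WT in EphB2-negative cells, 6 of 20 regulators fell, 15 of 34 kinetochore genes, 12 of 20 spindle genes, 9 of 16 condensin and cohesin genes, 18 of 38 replication genes and 4 of 19 genes of the anaphase-promoting complex and separation, and 0 rose in these lists, where 16.2% of all tested genes fell. The share in the anaphase-promoting complex list was close to that of all genes. Pbk fell by 2.68, the kinase Wee1 by 2.49, Cep55 by 1.94, the helicase gene Mcm6 by 2.01 and the cohesin subunit Smc3 by 1.28. In the G1 list 7 fell, Ccnd2 by 2.44 and Cdk4 by 1.53, and 2 rose.

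Between KO and WT in EphB2-positive cells 0 of 34 kinetochore genes passed, with 1 or 2 genes in each of the other lists, where 15.1% of all tested genes passed. Every list thus lay below that share, and the genes named next are single calls. Cdc25a, a phosphatase of cell cycle entry (0.48 ± 0.13), Cep55 (0.87 ± 0.20), the cohesin release factor Wapal (0.55 ± 0.12), the ribonucleotide reductase subunit Rrm2 (0.90 ± 0.26) and Ccnd1, cyclin D1 (0.95 ± 0.27), rose. Anapc13 and Anapc2 fell by 1.11 and 0.58, and Cdkn1a, the inhibitor p21, fell by 0.94. The difference of the genotype effect between sorts passed, on the side of EphB2-positive cells, for 2 of 20 regulators, 2 of 19 anaphase-promoting complex and separation genes, 4 of 34 kinetochore genes, 4 of 20 spindle genes, 7 of 16 condensin and cohesin genes and 5 of 38 replication genes, where 6.54% of all tested genes passed. The counts of the regulators and of the anaphase-promoting complex list, 2 genes each, were close to that share. In the G1 list 3 genes passed on that side, Ccnd2 and Ccnd1 among them, and 1 on the other, Cdkn1a.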

How the data were processed

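Poly(A) RNA of 9 sorted libraries was amplified as cDNA by long-distance PCR, per the labels' protocols. The deposited counts are whole-number read counts per gene that the authors made; the submitters' processing notes name CASAVA 1.4, FastQC, Bowtie2, HTSeq, DESeq2 and the build mm10. The annotation, like the strand setting, is not given in the sources used here. Exons of 10 members overlap another gene (Ccna2, Cdc20, Cdc25b, Kif20a, Kif4, Ncapd2, Ncapg, Nusap1, Prc1 and Ube2c, in 9 of them on the opposite strand), so reads of both cannot be told apart there if strand was not used. The 5 summary lines per file (reads with no feature, ambiguous and the like) were left out.

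The counts were fitted with edgeR 4.0.16 (R 4.3.3), with low genes removed by filterByExpr, TMM scaling, robust quasi-likelihood F test (two-sided), 4 group means, 5 residual degrees of freedom, and Benjamini-Hochberg adjustment over 11577 genes, with calls at an adjusted p under 0.05. SE is the size of the log2 fold change divided by √F, and intervals are 95%. CPM and RPKM were computed from the counts with GENCODE gene models for GRCm38. Depth was 1503972 to 2074076 reads, at which 3 reads are 1.37 to 2.002 CPM; such floors cover counting error only, since reads came from PCR without molecular identifiers. The labels do not tell whether replicates are different animals, and p-values then measure only the spread between the samples, which may be technical.

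The members, roles and lists were chosen with earlier results of these data known. Genes printed with all library values are 12 set by name and, for each of 5 comparisons, the 3 with the lowest p and those with the highest and lowest log2 fold change; Ephb2 and Nfkbia check the labels. Further lists are named by at most 3 genes of lowest p. The other members named with test values were added after their values were seen. Alternatives were DESeq2 1.42.0 and its size factors, other filters on low counts, the compared groups alone, a leukocyte covariate, a block for the replicate number or for the code that file names carry, and leaving out each library. The workflow was tested on simulated data. Figures used matplotlib 3.10.9 with Python 3.11.15.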

Additional observations from a re-analysis of the deposited data

Results flagged for a closer look

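For 16 of the 44 genes the effect of the knockout differed between the sorts by the interaction test (edgeR, adjusted p under 0.05). In all 16 the log2 fold change was higher in EphB2-positive cells, and 6.54% of all tested genes passed in that direction. The value is the log2 fold change of KO over WT in EphB2-positive cells minus that in EphB2-negative cells. It was 2.49 for Ncapg, 2.12 for Smc2, 1.87 for Top2a and 1.60 for Smc4 among scaffold and condensin genes. In the kinetochore it was 1.93 for Spc25, 1.91 for Cenpe and 1.60 for Nuf2. Among kinesins it was 1.91 for Kif11, 1.89 for Kif20b and 1.33 for Kif4. In cytokinesis it was 2.10 for Anln, 1.76 for Ect2 and 1.49 for Prc1. Aurkb had 2.12, Plk1 1.22 and Tpx2 1.46. No group had the 4 libraries needed to look for a single library far from the others. The WT EphB2-negative libraries, which differ from each other, enter each of these values. As given above, the count of 16 also fell when any single library outside that pair was left out, as did the calls over all genes.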

How the results depend on the processing

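DESeq2's size factors, the stricter filter and no filter kept every count of members called within 1.5 times that reported, and DESeq2 did so but for the sort in WT. For KO against WT in EphB2-positive cells the members called went from 0 to 15 on the compared groups alone, 12 with the leukocyte covariate and 0 to 11 over single left-out libraries (all genes 1746, then 3734, 3341 and 568 to 3479). In EphB2-negative cells the 30 became 0, 13 and 4 to 44 (all genes 3456, then 149 on the compared groups alone and 1096 to 5834 over left-out libraries). Between the sorts in WT the 5 became 11 with DESeq2, 0 on the compared groups alone, 0 with the covariate, 20 with a block for the file code and 0 to 44 over left-out libraries (all genes 513, then 942, 1, 73, 1248 and 0 to 5009). In KO the 44 became 3 with the covariate and 42 to 44 over left-out libraries (all genes 6428, then 1059 and 4437 to 7697). For the difference between sorts the 16 became 0 to 42 over left-out libraries (all genes 1430, then 32 to 3996). Deviations from the group means correlated at -0.07 to 0.13 between libraries with the same replicate number. Between sorts, libraries that share a code in the file names correlated at 0.13 in WT, where they also share the number, and at 0.07 and 0.11 in KO, so neither label passed 0.1 for every pair. With the replicate block the members called were 0, 28, 3, 44 and 13 for the comparisons in this order. All genes called were then 1055, 2963, 433, 5439 and 895, against 1746, 3456, 513, 6428 and 1430 as reported. Mki67 for KO over WT in EphB2-positive cells was at 0.0019 with this block. Beside the 13 members called with the covariate in EphB2-negative cells, 2871 of all genes were called.

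Some estimates changed sign. In EphB2-positive cells KO over WT for Cenpa, near 0, was 0.027 with DESeq2 size factors, 0.0096 with no filter, 0.032 with DESeq2, 0.051 with the covariate and -0.10 to 0.078 over left-out libraries; Cdk1 ran over -0.15 to 0.29 and Mki67 over -0.15 to 0.066. In EphB2-negative cells the covariate gave 0.33 for Aurka, 0.37 for Birc5, 0.37 for Ccnb1, 0.86 for Cdc20 and 0.14 for Cenpa, and left-out libraries gave -0.99 to 0.19, -1.03 to 0.29, -1.71 to 0.20, -1.54 to 0.67 and -1.42 to 0.030, above 0 only without WT EphB2-negative replicate 1. In WT the covariate took the sort effect of the members' median to -0.055, and that of Aurka to -0.0036, Birc5 -0.28, Ccnb1 -0.57, Cdc20 -0.53, Cdk1 -0.17, Cenpa -0.14, Kif11 -0.21, Mki67 -0.43 and Smc4 -0.26. In KO it took Birc5 to -0.23, Ccnb1 -0.41, Ccnb2 -0.081, Cdc20 -1.15, Cenpa -0.23 and Mki67 -0.059. The difference between sorts was -0.62 for Cdc20 and -0.089 for Cenpa with the covariate, and over left-out libraries -0.50 to 1.71 and -0.025 to 1.42. The cause of these shifts was not tested. Leaving out a library also leaves fewer samples to estimate the spread, which bears on the calls. In fits that leave a group with 1 library, that library is assumed to vary like the other groups.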
